A study of Rattus norvegicus with 24 samples.

Results

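The change of the liver response to rotenone between the first day and the second week of feeding was examined as a difference of differences, and it was asked in each gene whether the rotenone-fed or the control livers had moved. The members are the 16 arrays of day 1 and day 14, chosen by their titles out of 24 arrays in the series, with 4 control and 4 rotenone livers on each day. The rats were male RccHan Wistar animals aged 7 to 8 weeks at the start, 1 array per animal. Treated groups received 400 ppm rotenone in the diet for 1 or 14 days, and controls ate the same chow without it (0 ppm) for the same time. The 8 livers of day 3 were used only to place that day between the other 2 and to estimate the spread. All livers were whole tissue of intact animals with no transgene, sampled once, so that no animal was followed over time, and the animals of day 14 were older than those of day 1 in both diets.

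Rotenone blocks complex I, the entry point of electrons from NADH into the mitochondrial respiratory chain. The liver is the organ that makes fatty acids, cholesterol, bile acids and most plasma proteins, and it adjusts these pathways through transcription factors such as the SREBPs (lipid synthesis), PPAR alpha (fatty acid burning), the clock repressors of the REV-ERB and CRY families, and signals such as growth hormone and insulin. Many of these programmes are known to differ between the first day of a stress and a later adapted state, and some change with age alone, which is why the controls of each day enter the comparison.

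For each gene, the rotenone effect of a day is the mean log2 intensity of the rotenone livers minus that of the controls of that day, and the shift is the effect of day 14 minus the effect of day 1. The shift is also the change of the rotenone livers from day 1 to day 14 minus the change of the control livers over the same days, so that each shift can be split into a rotenone part and a control part. A positive shift can therefore be a repression that faded, an induction that appeared, or a fall in the controls alone. Values are log2 of the deposited intensity plus 1, given for a gene by its brightest transcript cluster, and errors after ± are moderated standard errors from limma. A value is said to have passed when its limma p, adjusted by Benjamini-Hochberg over all 68842 transcript clusters, lay below 0.05.

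Across the 24 arrays the median intensity lay between 28.9 and 35.5 and the correlation within a group between 0.990 and 0.996, and the number of arrays limits the precision. The log2 of the summed intensity of 10 hepatocyte markers lay between 21.86 and 22.04 in every liver. The brightest members weigh most in such a sum, so it does not measure hepatocyte content. Albumin (Alb) lay between 19.89 and 19.91 in all 16 livers, near the top of the scale. In the rotenone group of day 14 the liver of replicate 1 lay closer to the other groups than its 3 companions. It was the least moved of the 4 in 305 of the 479 genes described below, and its median position along their shifts was 0.811 of the whole, against 1.10, 1.00 and 1.11 for replicates 2, 3 and 4. The cause was not tested.

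A shift passed in 640 transcript clusters, 371 positive and 269 negative. With each array centred on its median the count was 405, with 196 positive and 209 negative. Counted as genes, 479 of 22093 passed, which is 2.17% of all genes tested. Of these, 274 (1.24%) were positive and 205 (0.928%) negative. Counts of shifts in the lists below stand beside these shares. Over all genes the median shift was 0.04. The number depended on single livers. It was 1012 clusters without rotenone day 14 replicate 1. It was 333 and 361 without rotenone day 14 replicates 4 and 2, 352 without control day 14 replicate 3, 395 and 420 without control day 1 replicates 4 and 1, and 386, 424 and 421 without rotenone day 1 replicates 1, 2 and 3. For each named gene below, the number of these 16 refits in which it missed the threshold is given where that number was above 0. With the 16 arrays fitted alone, 265 clusters passed and 27 of the 67 named genes that follow the naming rule missed the threshold. Of these 27, 6 missed in none of the 16 refits (Acat2, Hsd17b7, Elovl6, Eci1, Hba-a1 and Ldha), and their values are given with each gene.

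The rotenone livers moved far more between the days than the controls. From day 1 to day 14, 1629 genes (7.37%) changed in rotenone livers, 839 (3.8%) upward and 790 (3.58%) downward. In control livers 39 genes (0.177%) changed, all 39 (0.177%) downward. Of the 479 genes with a shift, the change passed in rotenone livers alone in 462, in control livers alone in 1, in both in 0, and in neither alone in 16. The median size of the change over the 479 genes was 0.89 in rotenone livers and 0.19 in controls. Rotenone livers of the 2 days did not overlap in 455 of the 479 genes and control livers in 58. Over all genes the shares were 15.0% and 3.66%. The 479 genes were chosen by the shift in these same livers, so these counts describe them and are no separate support.

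Passing in one diet and missing in the other does not show that the parts differ in size, so the sizes were compared. In 120 of the 479 genes both diets moved in the same direction, and there the shift is itself the difference in size. In all 120 the rotenone change was the larger. In the other 359 genes the diets moved in opposite directions, and the sum of their changes tests which was larger. This passed in 85 genes, with the rotenone change larger in all 85. The rotenone part was thus tested as the larger in 205 genes (42.8%) and the control part in 0. In the remaining 274 genes the data did not tell the parts apart, although the estimate was larger in rotenone livers in 467 of all 479.

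**Figure D1:**
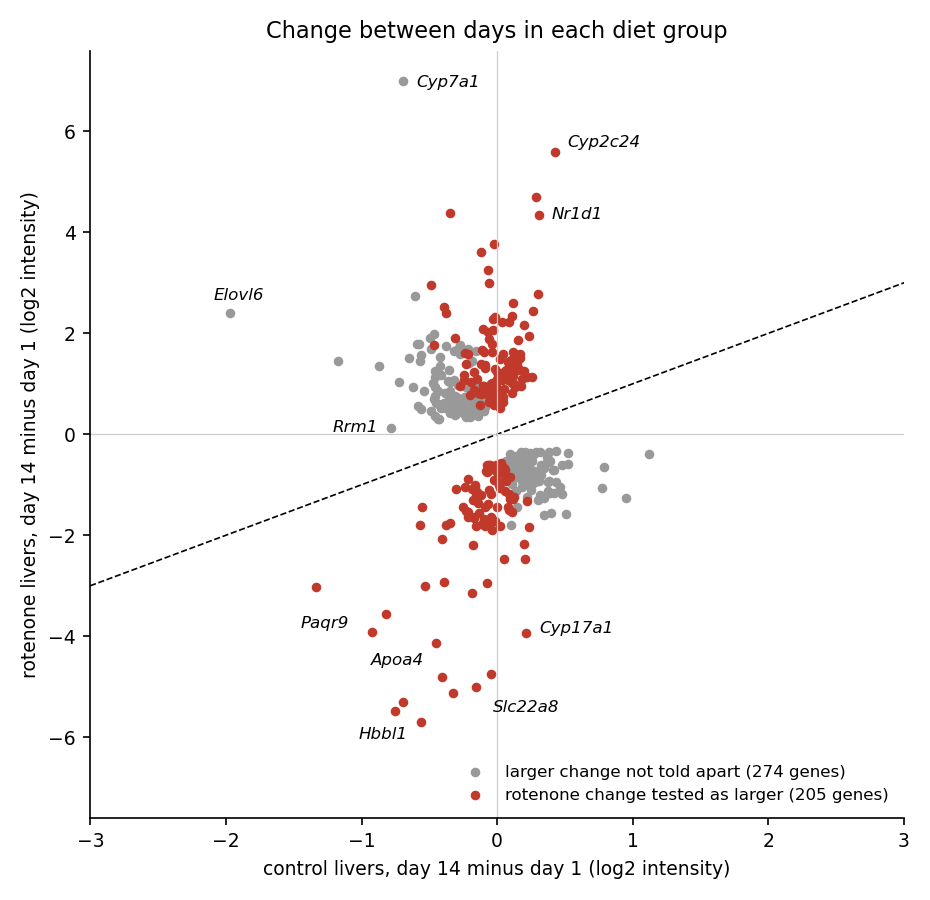
Change from day 1 to day 14 in control livers (horizontal, log2 intensity) and in rotenone livers (vertical, log2 intensity, on a longer scale) for the 479 genes whose shift passed. The dashed line marks equal change in both diets. Red points are the 205 genes in which the rotenone change was tested as the larger and grey points the 274 in which it was not told apart; most points stretch along the vertical axis, while Elovl6 and Rrm1 lie well to the left of 0.

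The shifts were of several kinds, by the calls on each day. Among all genes, 2080 (9.41%) differed between the diets after 1 day, with 1257 (5.69%) higher and 823 (3.73%) lower in treated livers. After 14 days 2057 (9.31%) differed, with 1321 (5.98%) higher and 736 (3.33%) lower. Counts by day in the lists below stand beside these shares. Of the 479 genes with a shift, 207 had an effect that passed on day 14 alone, 118 with a positive and 89 with a negative shift. In 190 the effect passed on day 1 alone, of which 109 had been lower and 81 higher with rotenone. A miss on the other day does not show that the effect was absent there. The effect turned from lower to higher in 22 genes and from higher to lower in 15. In 17 it kept its direction and changed its size, and in 28 neither day passed by itself. The livers of day 3 took no part in these contrasts. There the effect lay between those of day 1 and day 14 in 434 of the 479 genes, and at the median it had covered 0.507 of the way. It was nearer to day 14 in 246 genes and nearer to day 1 in 233. The 479 genes were chosen because their effects on day 1 and day 14 lay apart. A day 3 effect between them is thus favoured in advance, and these counts are no separate support.

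Bile acid synthesis held the shift of greatest size among the 479 genes. Cyp7a1, the rate-limiting enzyme of the pathway, was at 14.60, 14.58, 15.06 and 15.67 in control livers of day 1 and at 7.56, 11.13, 7.98 and 13.43 in rotenone livers. On day 14 the controls were at 14.47, 13.01, 13.50 and 16.16 and the rotenone livers at 14.33, 17.29, 17.72 and 18.76. Every rotenone liver of day 1 lay below every control, whereas on day 14 3 of the 4 lay above all controls and replicate 1 lay among them. The effect moved from -4.95 on day 1 through -2.25 on day 3 to 2.74 on day 14, the last not passing (adjusted p = 0.223), and the shift was 7.70 ± 1.68 (adjusted p = 0.0258). Rotenone livers contributed a rise of 7.00 and controls a change of -0.69, and the sizes were not told apart (adjusted p = 0.0704). The shift missed the threshold in 9 of the 16 refits, with the highest adjusted p of 0.0688 without rotenone day 14 replicate 4. It was 8.59 without rotenone day 14 replicate 1. Of the 18 bile acid genes found, Cyp7a1 was the single one to pass. Cyp8b1, which directs synthesis toward cholic acid, was higher with rotenone on both days, by 3.83 and 4.93, with a shift of 1.10 ± 0.67 (adjusted p = 0.596) and a 95% interval from -0.29 to 2.50.

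Cholesterol synthesis genes rose between the days in rotenone livers, though unevenly between animals. Of 17 enzymes found of the 20 listed, 6 had a positive shift and 0 a negative one, beside 2.17% of all genes, all 17 estimates were above 0, and the median shift was 1.88 beside 0.04 over all genes. The median change between days was 1.74 in rotenone livers, where 16 of the 17 rose, and -0.07 in controls, where none passed. The count was 16 without rotenone day 14 replicate 1. It was 4 without any 1 of control day 1 replicates 1, 2 and 4, control day 14 replicate 3, rotenone day 1 replicates 1 and 3, and rotenone day 14 replicates 2, 3 and 4. The mean log2 intensity of the 17 enzymes was 11.33 in rotenone day 14 replicate 1, close to the 11.20 to 11.27 of the controls of that day, and 12.44, 13.01 and 13.47 in replicates 2, 3 and 4. By day, 4 enzymes were lower and 0 higher on day 1, and 10 were higher and 0 lower on day 14.

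Tm7sf2, a sterol reductase of the later pathway, changed sides. Its control livers read 12.41, 12.76, 12.74 and 12.84 on day 1 and 12.80, 12.52, 12.18 and 11.67 on day 14. The rotenone livers read 11.80, 11.63, 11.65 and 11.68 on day 1 and 13.59, 14.86, 13.95 and 14.46 on day 14. Rotenone livers were thus below all controls on the first day and above all of them on the last. The effect was -0.99 on day 1 and 1.92 on day 14, both passing, and the shift of 2.92 ± 0.32 (adjusted p = 7.88e-05) came from a rise of 2.52 in rotenone livers against -0.39 in controls, a difference in size that passed (adjusted p = 0.000703). Acat2, which joins the first acetyl units, shifted by 3.33 ± 0.67, and Hsd17b7, a ketoreductase acting on sterol intermediates, by 3.07 ± 0.62. For both, the rotenone effect on day 1 did not pass (-0.74 and -0.64), that of day 14 did (2.59 and 2.43), and the rotenone part was tested as the larger. With the 16 arrays alone neither passed (adjusted p by limma 0.0612 and 0.0767). Pmvk (1.62), Fdft1 (1.96) and Fdps (0.80) completed the 6, with effects on day 14 of 0.27, 0.67 and 0.42, none of which passed. Fdft1 missed in 10 of the refits and Fdps in 13. These 3 names were added after their values were seen, as were Fads1, Fads2, Gsta4, Lipc, Csf1r, Adgre1 and Alas2 below.

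The promoters of the 2 reductases are shown because both carry the CCAAT box, the letters bound by NF-Y, a factor known to act beside SREBPs at sterol genes. Each window runs from 250 bases before to 50 bases after the RefSeq start on build GRCr8, both genes on the minus strand, with each CCAAT or its reverse complement ATTGG in capitals. Tm7sf2 lies at chr1:212789492-212789791 and Hsd17b7 at chr13:84722705-84723004.
Tm7sf2: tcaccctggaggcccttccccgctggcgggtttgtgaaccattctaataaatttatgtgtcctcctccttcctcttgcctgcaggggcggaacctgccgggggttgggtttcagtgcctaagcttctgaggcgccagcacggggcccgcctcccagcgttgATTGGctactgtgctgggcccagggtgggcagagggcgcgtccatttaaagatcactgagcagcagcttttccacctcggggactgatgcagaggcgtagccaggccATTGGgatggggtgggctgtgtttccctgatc
Hsd17b7: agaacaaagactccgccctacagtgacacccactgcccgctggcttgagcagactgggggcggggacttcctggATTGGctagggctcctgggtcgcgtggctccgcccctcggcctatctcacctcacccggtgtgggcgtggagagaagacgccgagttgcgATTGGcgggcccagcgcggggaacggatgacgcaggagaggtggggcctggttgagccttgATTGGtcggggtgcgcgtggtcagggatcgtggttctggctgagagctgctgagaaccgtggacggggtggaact
There were 2 matches in the first and 3 in the second. Read on both strands, CCAAT stood in 11 of the 14 cholesterol promoters matched (78.6%) and in 37.5% of all 33469 promoters of this length. TCACCCCAC, a core of the sterol element, stood in 0 of the 14 and in 0.484% of all. A match describes letters and no binding was measured.

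**Figure D2:**
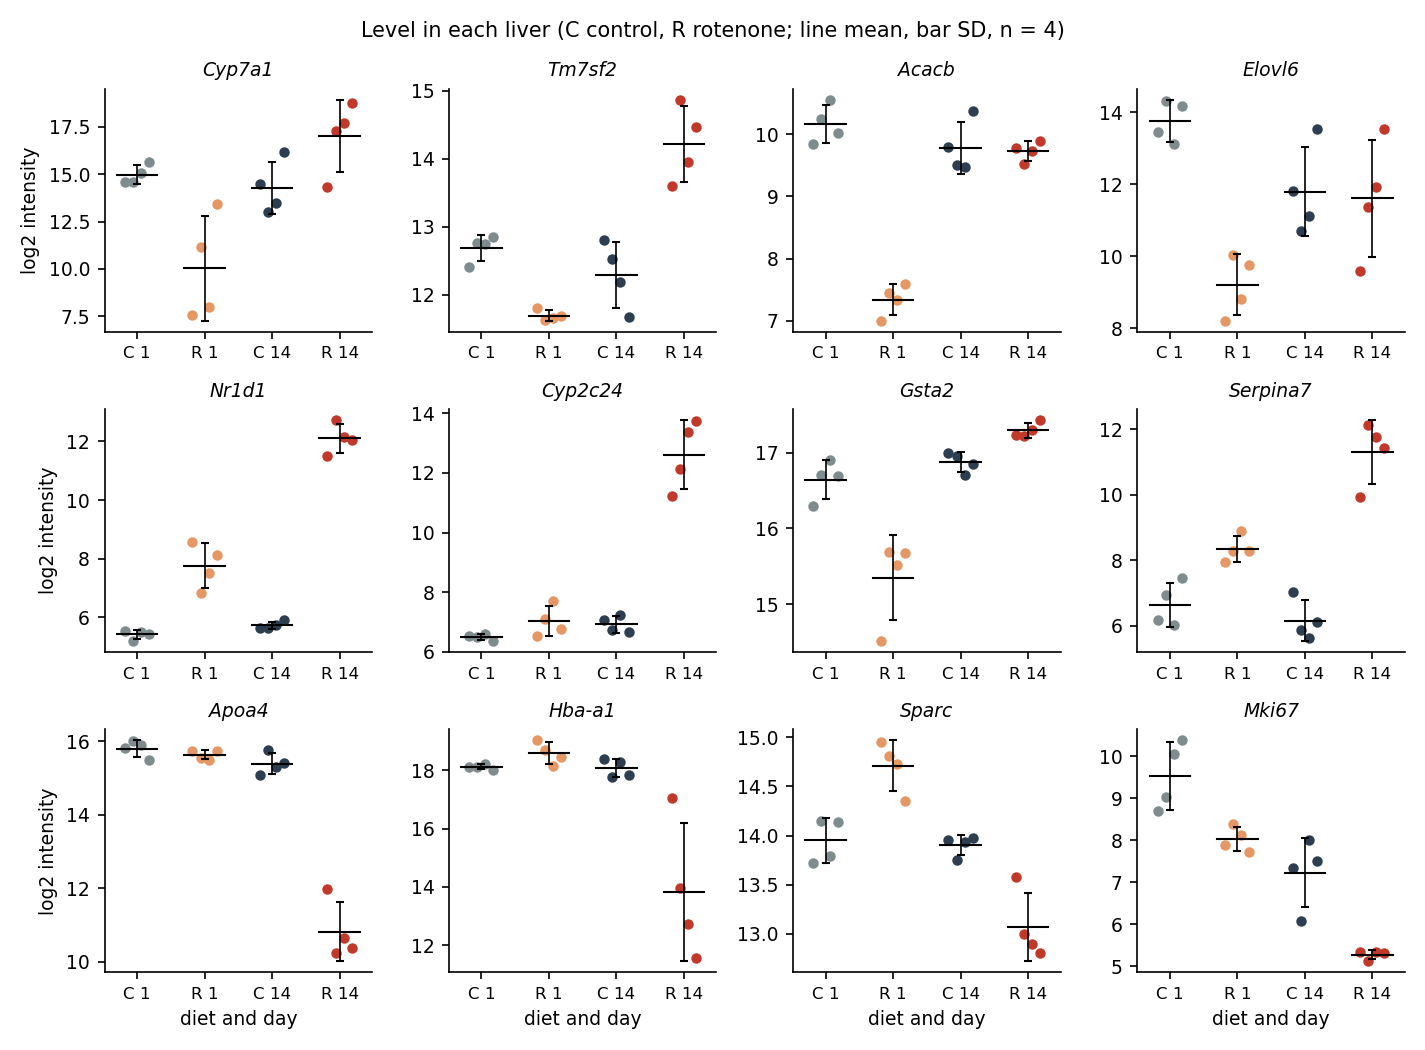
Log2 intensity of 12 genes in each liver of the 4 groups (C, control; R, rotenone; day 1 or 14), with the mean as a line and the SD as a bar, n = 4. Axes differ between panels and do not start at 0. In Cyp7a1, Tm7sf2, Acacb, Elovl6 and Gsta2 the rotenone livers start low and end level with or above the controls, in Nr1d1, Cyp2c24 and Serpina7 they climb away, and in Apoa4, Hba-a1 and Sparc they fall, while Mki67 falls in both diets.

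Fatty acid and triglyceride synthesis lost its early repression only in some members. Of 22 genes, 16 were lower and 0 higher on day 1, and 5 were lower and 2 higher on day 14. A shift passed in 5, all positive, beside 1.24% of all genes, and the median shift over the 22 was 1.03. The median change was 0.40 in rotenone livers and -0.52 in controls, and no member passed in controls. The count lay between 4 and 8 over the refits, was 8 without control day 14 replicate 4, and came with 1 negative shift without rotenone day 14 replicate 1.

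Acacb, the carboxylase that makes malonyl-CoA at the mitochondrial surface, returned to the control level. Rotenone livers of day 1 held 7.00, 7.44, 7.33 and 7.59 against 9.84, 10.24, 10.55 and 10.02 in controls. On day 14 they held 9.78, 9.52, 9.73 and 9.89 against 9.80, 9.50, 9.47 and 10.37. The groups were apart on day 1 and interleaved on day 14. The shift was 2.77 ± 0.36 (adjusted p = 0.000447), with 2.39 in rotenone livers and -0.38 in controls, and the rotenone part was tested as the larger (adjusted p = 0.0033).

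Elovl6, which extends palmitate, behaved otherwise. Its controls themselves dropped, from 13.45, 14.30, 13.10 and 14.18 on day 1 to 11.82, 10.71, 11.12 and 13.52 on day 14. The rotenone livers rose from 8.20, 10.03, 8.81 and 9.76 to 9.59, 11.37, 11.93 and 13.54. A rise of 2.41 in rotenone livers and a change of -1.97 in controls made up the shift of 4.38 ± 0.88, and their sizes were not told apart (adjusted p = 0.936). The control change did not pass by itself, and with the 16 arrays alone the shift missed the threshold (adjusted p by limma 0.0744). Acss2, which activates acetate, shifted by 2.48 ± 0.54 almost wholly in rotenone livers (2.60 against 0.11) and missed the threshold in 5 of the 16 refits. Fads1 and Fads2, the desaturases of polyunsaturated fatty acids, shifted by 1.59 and 2.17, with control changes of -0.46 and -0.65. Scd, the desaturase that makes oleate, had no detectable shift. It was lower with rotenone on both days, with effects of -6.14 and -6.16, the shift was -0.02 ± 0.83, and the 95% interval from -1.74 to 1.71 leaves room for a sizeable change. Srebf1, the transcription factor of this pathway, had a shift of 2.08 ± 0.79 that did not pass (adjusted p = 0.289), split between 1.00 in rotenone livers and -1.08 in controls.

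Genes of fatty acid burning moved less and in both directions. Of 23 oxidation and ketone genes, 2 shifted up and 4 down, with a median of -0.36, and of 21 PPAR alpha targets 1 shifted up and 3 down, with a median of -0.48. Over the refits the first list gave 1 or 2 up and 1 to 3 down. It gave 3 down without control day 14 replicate 1, rotenone day 1 replicate 2 or 4, or rotenone day 14 replicate 1, and at most 2 without any other liver. The second gave 0 or 1 up and 0 to 3 down, with 3 down only without control day 1 replicate 3 or control day 14 replicate 4. On day 1, 14 of the 23 oxidation genes were higher and 1 lower with rotenone, and on day 14, 10 were higher and 1 lower. Eci1, an isomerase that lets unsaturated fatty acids enter oxidation, illustrates the shrinking effect. Its rotenone livers held 12.38, 11.02, 11.41 and 11.41 on day 1 and 9.79, 10.59, 10.32 and 10.33 on day 14, while controls held 8.60, 8.70, 9.07 and 8.85 and then 8.71, 9.32, 9.24 and 9.16. The rotenone livers stayed above all controls on both days, by 2.75 and then 1.15, for a shift of -1.61 ± 0.32. The parts were -1.30 in rotenone livers and 0.30 in controls. With the 16 arrays alone it missed the threshold (adjusted p by limma 0.0569).

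Hadha, a subunit of the trifunctional protein, shifted by -0.66 ± 0.15 and missed in 12 of the refits. Creb3l3, a liver factor induced in fasting, shifted by -1.01 ± 0.24 and missed in 13, and Acot3, a thioesterase, by -1.55 ± 0.37 and missed in 11. All 3 were higher with rotenone on day 1. Plin2, which coats lipid droplets, had a shift of -1.66 ± 0.38, with -2.07 in rotenone livers and -0.41 in controls, and missed in 11. Bdh1, a ketone body dehydrogenase, showed the opposite timing. It differed by 0.05 on day 1 and -0.99 on day 14, and missed in 14. Etfb and Etfa, the subunits of the electron carrier that feeds the respiratory chain from oxidation, shifted up by 0.81 ± 0.15 and 0.63 ± 0.14, the latter missing in 9, with effects on day 1 of -0.07 and 0.04. Cd36, a fatty acid importer, shifted up by 1.802 ± 0.40, from 0.72 to 2.52, and missed in 7. Cpt1a, the gate of mitochondrial oxidation, had a shift of -1.84 ± 0.75 that did not pass (adjusted p = 0.341).

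**Figure D3:**
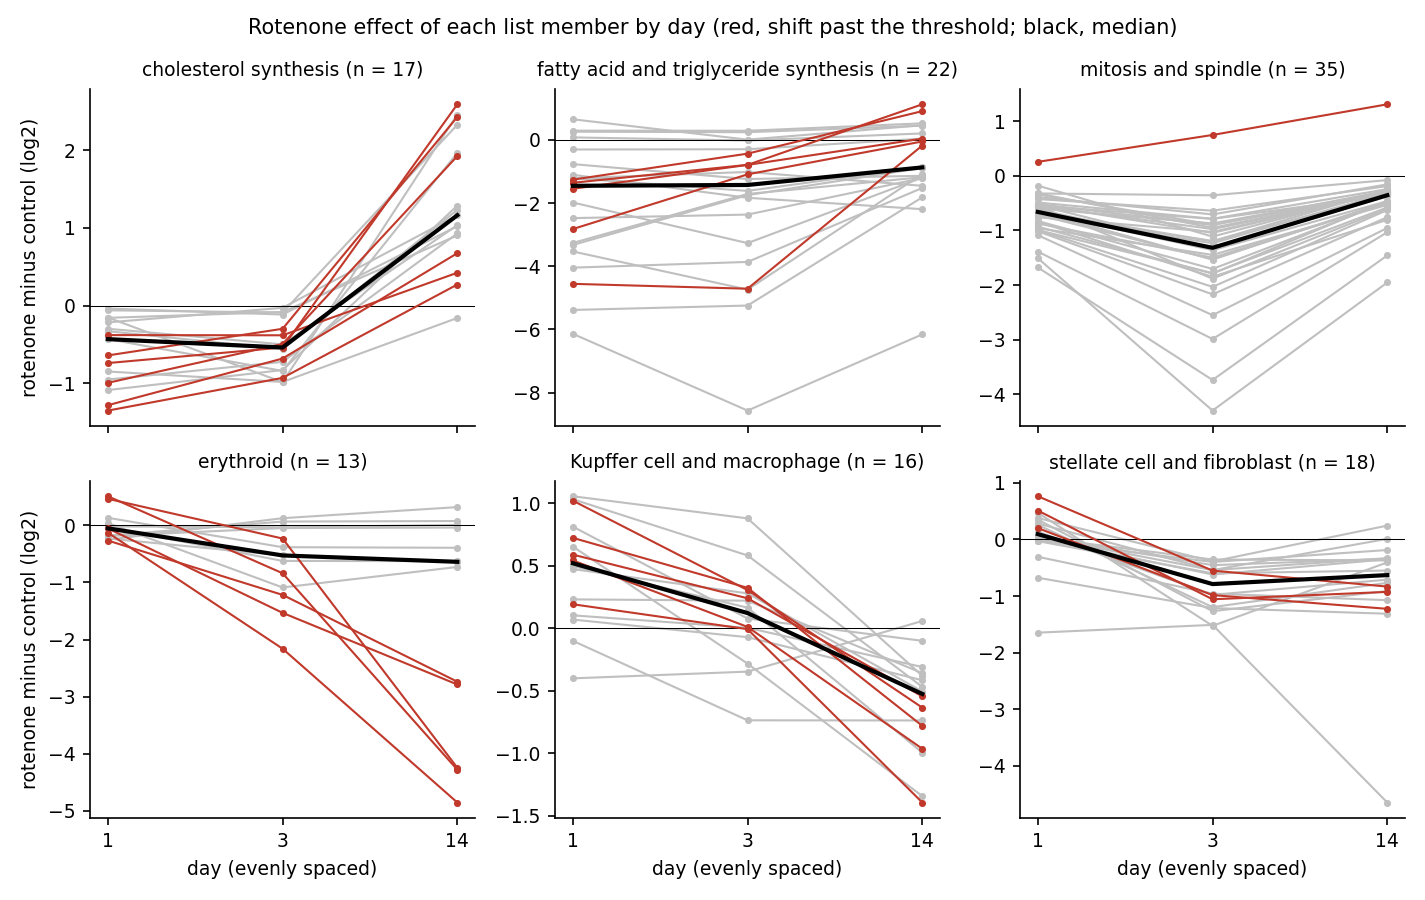
Rotenone minus control (log2 intensity) on day 1, 3 and 14 for every member found of 6 lists, with days evenly spaced. Red lines are genes whose shift from day 1 to day 14 passed, grey lines the others, and the black line the list's median. At the list's median, cholesterol genes stay low through day 3 and are high on day 14, erythroid and macrophage genes fall, and mitosis genes are lowest on day 3.

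Among clock genes, Nr1d1 kept growing. It encodes REV-ERB alpha, a repressor in the circadian loop, and was at 5.55, 5.19, 5.51 and 5.44 in control livers of day 1 and 5.64, 5.63, 5.75 and 5.90 on day 14, just above the median negative control probe set (5.05). Rotenone livers held 8.58, 6.83, 7.51 and 8.13 on day 1 and 11.50, 12.72, 12.15 and 12.05 on day 14. No rotenone liver of one day overlapped those of the other or any control. The effect was 2.34 on day 1, 4.37 on day 3 and 6.38 on day 14, and the shift of 4.03 ± 0.74 (adjusted p = 0.00798) was made by 4.34 in rotenone livers and 0.31 in controls, a difference in size that passed (adjusted p = 0.00111). Because the controls lie near the floor, effects on either day may be compressed there. Cry2, a repressor of the same loop, returned from -1.09 on day 1 to 0.17, a shift of 1.26 ± 0.20. Cry1 moved the other way, from -0.44 to -2.40, a shift of -1.95 ± 0.41 that missed in 2 of the refits. Of the 18 clock genes found, 2 shifted up and 1 down, with a median of 0.24. Without rotenone day 14 replicate 1 the counts were 6 and 4. In controls 0 of the 18 passed between the days, with a median change of 0.09. The time of day of each necropsy is not given in the sources used here, and its part in the shifts was not tested. A difference in it between the diets of a day cannot be told apart from the rotenone effect.

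The promoter of Nr1d1 is shown because clock activators bind the E-box, CACGTG, given in capitals. The window is the second of its RefSeq starts in the table, at chr10:84229405-84229704 on the minus strand of GRCr8.
Nr1d1: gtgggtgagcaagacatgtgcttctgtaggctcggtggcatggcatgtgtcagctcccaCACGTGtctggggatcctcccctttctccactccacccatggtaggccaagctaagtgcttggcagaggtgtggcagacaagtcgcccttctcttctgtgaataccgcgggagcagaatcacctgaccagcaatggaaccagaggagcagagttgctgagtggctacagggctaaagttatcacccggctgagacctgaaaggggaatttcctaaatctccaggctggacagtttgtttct
CACGTG reads alike on both strands. It stood in 5 of the 18 promoters of 16 clock genes (27.8%), those of Ciart, Bhlhe40, Bhlhe41, Tef and Nr1d1, and in 6.42% of all promoters. The window shown was the only one of Nr1d1 that held it. The D-box TTATGTAA or TTACATAA, read on both strands, stood in 1 of the 18, that of Per2, and in 0.893% of all.

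Among genes of steroid and drug metabolism and of growth hormone action, some shifted in each direction. Of those that passed, Cyp2c24, Cux2 and Cyp2c7 were on the list of growth hormone, IGF and sex-dependent genes. Cyp2c80, Hsd17b2, Cyp17a1 and Serpina7 were not on it and were named for the size of their shift. Cyp2c24 lay near the same low level in 3 of the groups, at 6.53, 6.51, 6.60 and 6.36 in controls of day 1, at 7.07, 6.72, 7.25 and 6.66 in controls of day 14, and at 6.53, 7.10, 7.69 and 6.76 in rotenone livers of day 1. In rotenone livers of day 14 it was at 11.24, 12.13, 13.37 and 13.74. The effect thus appeared after day 1, was 3.19 on day 3, and gave a shift of 5.18 ± 0.60 (adjusted p = 0.000163), with 5.60 in rotenone livers and 0.42 in controls. Cyp2c80, of the same family, shifted by 4.40 ± 1.06, but its rotenone livers of day 14 were at 7.55, 11.66, 13.05 and 13.52, with replicate 1 far below the others. It missed in 15 of the refits and was 5.70 without that liver (adjusted p = 6.98e-07). Cyp2c7, an abundant member, fell late, from an effect of 0.24 to -2.29, a shift of -2.53 ± 0.55 that missed in 5. Probes of such close relatives may share signal.

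Hsd17b2, which inactivates sex steroids, differed by 0.10 on day 1 and by 4.84 on day 14. Its rotenone livers held 9.83, 9.45, 9.82 and 9.79 and then 12.25, 14.68, 14.91 and 14.61, against 9.07, 9.66, 10.32 and 9.41 and then 9.78, 7.87, 10.45 and 8.98 in controls. Rotenone livers of day 14 lay above all the others, with replicate 1 the lowest of them. The shift was 4.74 ± 0.99 and missed in 2 refits. Cyp17a1, an enzyme of androgen synthesis, did the reverse. Rotenone livers were at 13.16, 12.99, 12.78 and 12.16 on day 1 and 8.56, 9.82, 8.53 and 8.44 on day 14, and controls at 8.05, 10.33, 8.06 and 7.62 and then 8.40, 8.83, 10.72 and 6.98. An effect of 4.26 was 0.84 on day 3 and 0.11 on day 14. The shift was -4.15 ± 0.87 and missed in 2 refits.

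Serpina7, the thyroxine carrier of plasma, grew from 1.71 to 5.15, a shift of 3.44 ± 0.59 (adjusted p = 0.0043). Cux2, a repressor of male-type genes in the mouse, shifted by 1.19 ± 0.27 and missed in 10. Igf1, the hormone through which growth hormone acts, had a shift of -0.96 ± 0.24 with an adjusted p of 0.0551, and Igfbp2, one of its binding proteins, of 2.97 ± 0.80 with 0.084. Neither passed, although Igf1 fell by 1.02 and Igfbp2 rose by 2.67 within rotenone livers. In all, 2 of the 29 genes found of the growth hormone, IGF and sex-dependent list (Cyp2c24 and Cux2) shifted up and 1 (Cyp2c7) down, with a median of -0.62. Over the refits the counts lay between 1 and 3 and between 0 and 6, with 3 and 6 without rotenone day 14 replicate 1.

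In the lists of NRF2 targets and of xenobiotic enzymes, the shifts that passed were all upward. Cyp2c7 (above) and the organic anion transporter Slc22a8 (below) were not on these lists and shifted downward, by -2.53 and -4.84. Of 23 NRF2 targets and antioxidant genes, 4 passed, all upward, beside 1.24% of all genes. The median was 0.30, and between 3 and 5 passed over the refits. Gsta2, a glutathione transferase, was at 14.51, 15.69, 15.52 and 15.68 in rotenone livers of day 1, below all controls (16.29, 16.70, 16.90 and 16.69). On day 14 it was at 17.23, 17.22, 17.30 and 17.43, above all controls (17.00, 16.96, 16.71 and 16.85), though the effect of 0.42 on that day did not pass. The shift was 1.71 ± 0.26 (adjusted p = 0.00198), with 1.95 in rotenone livers and 0.23 in controls. Gsta3 turned from -0.86 to 1.34, both passing, a shift of 2.20 ± 0.34, and Gsta4 from -0.75 to 0.72. In all 3 transferases the rotenone part was tested as the larger. They are close relatives whose probes may share signal. Abcc3, an exporter of conjugates at the sinusoidal membrane, was at 6.54, 6.49, 6.40 and 7.32 in rotenone livers of day 1 and 7.05, 12.03, 10.85 and 11.88 on day 14, and replicate 1 thus lay within the day 1 range. The shift of 3.79 ± 0.92 missed in 14 refits and was 4.92 without that liver. Of 19 xenobiotic enzymes 1 passed, the carboxylesterase Ces2c, with 2.47 ± 0.43. Acsm2, which activates medium-chain and aromatic acids, went from 0.02 to 3.76, a shift of 3.74 ± 0.53 (adjusted p = 0.000948).

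Of 19 genes of apolipoproteins and lipoprotein assembly, 0 shifted up and 4 down, beside 0.928% of all genes shifting down, with a median of -0.44 and 6 estimates above 0. The 4 were the apolipoproteins Apoa4 and Apoa1 and the enzymes Lcat and Lipc. Between 3 and 6 fell over the refits, 6 without control day 14 replicate 4. Apoa4, a component of chylomicrons and high-density lipoprotein, was at 15.81, 15.99, 15.90 and 15.48 in control livers of day 1 and 15.09, 15.76, 15.29 and 15.41 on day 14. Rotenone livers were at 15.74, 15.55, 15.50 and 15.73 on day 1 and at 11.99, 10.24, 10.64 and 10.38 on day 14. The day 14 rotenone livers stood alone, with replicate 1 the highest of them. The effect was -0.17, then -1.76 on day 3, then -4.57, and the shift was -4.41 ± 0.36 (adjusted p = 1.45e-06). The rotenone livers changed by -4.82 and the controls, without passing, by -0.41, so that the shift is also the difference in size. Apoa1, the main protein of high-density lipoprotein, turned from 0.64 to -1.90, both passing, a shift of -2.54 ± 0.25, and Lcat, which esterifies cholesterol on those particles, from 0.47 to -0.41, a shift of -0.88 ± 0.14. With quantile normalization the shift of Lcat was -0.61 and missed the threshold (adjusted p by limma 0.25). Lipc, hepatic lipase, shifted by -0.75 and missed in 10 of the refits.

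Slc22a8, an organic anion transporter, was at 15.73, 15.59, 15.85 and 14.71 in rotenone livers of day 1 and 13.30, 9.01, 9.88 and 9.69 on day 14. Its controls were at 15.04, 14.99, 15.46 and 15.12 and then 15.09, 14.68, 14.81 and 15.40. The shift was -4.84 ± 0.78 (adjusted p = 0.00276), of which -5.00 lay in rotenone livers, and it was -5.79 without rotenone day 14 replicate 1. Abhd2, a lipid hydrolase, shifted by -3.69 ± 0.71. Paqr9, of the progestin and adipoQ receptor family, was lower on both days, with effects of -1.36 and -4.35 and a shift of -2.99 ± 0.53, while Mbtps2, a protease that releases SREBPs, shifted by -0.62 ± 0.12 from 0.47 on day 1, which passed, to -0.16 on day 14, which did not. Sntb1, a syntrophin of the membrane skeleton, rose late, from 1.23 to 4.58, a shift of 3.35 ± 0.59.

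Globin transcripts were lower in rotenone livers of day 14. Of 13 erythroid markers found, 0 shifted up and 5 down, beside 0.928% of all genes shifting down. The median was -0.60, and 4 estimates were above 0. Over the refits 4 or 5 shifted down. Hba-a1, an alpha globin, lay between 17.77 and 18.40 in all 8 controls. It was at 19.02, 18.71, 18.14 and 18.45 in rotenone livers of day 1 and 17.06, 13.97, 12.72 and 11.55 on day 14. All 4 livers of the last group lay below every other, but they spread over more than 5 log2 units, with replicate 1 the highest. The shift was -4.71 ± 0.90 (adjusted p = 0.0112), and -5.79 without replicate 1. With the 16 arrays alone it missed the threshold (adjusted p by limma 0.0707). Hba-a3, Hbb-b1, Hbb-bs and Hbbl1 shifted by -4.79, -4.73, -4.61 and -5.14, with control changes between -0.75 and -0.33. Hbb-bs and Hbbl1 were not among the listed markers and were named for the size of their shift. Globin copies are nearly identical and their probes may share signal. Alas2, the first enzyme of haem synthesis in red cell precursors, shifted by -2.73. With the 16 arrays alone Alas2 missed the threshold (adjusted p by limma 0.0533). The rotenone part was tested as the larger in each of these 6 genes. The log2 of the summed intensity of the 13 markers, in which bright members such as Hba-a1 weigh most, ranged from 18.34 to 18.60 in controls of day 1. It ranged from 18.29 to 19.38 in rotenone livers of day 1, from 18.02 to 18.60 in controls of day 14 and from 11.98 to 17.15 in rotenone livers of day 14. In whole liver, fewer red cells or precursors and less RNA per cell cannot be told apart, here and for the cell types below.

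Macrophage and matrix genes also shifted downward. Of 16 Kupffer cell and macrophage markers, 0 shifted up and 5 down, beside 0.928% of all genes shifting down. The median shift was -1.29, and the median change was -0.86 in rotenone livers and 0.34 in controls. By day, 4 markers were higher and 0 lower with rotenone on day 1, and 0 were higher and 4 lower on day 14. Cd163, a haemoglobin scavenger receptor, was at 10.07, 10.84, 10.17 and 10.27 and then 10.58, 10.41, 11.28 and 10.59 in controls, and at 11.20, 11.05, 10.73 and 10.54 and then 9.76, 10.08, 9.82 and 9.34 in rotenone livers. Rotenone livers of day 14 lay below all the others except 1 control of day 1 (10.07, against 10.08 at most). The shift of -1.51 ± 0.31 was split into -1.13 and, in controls, 0.38, and the sizes were not told apart (adjusted p = 0.341). Clec4f, a lectin of Kupffer cells, shifted by -1.59 ± 0.34 and missed in 5 refits. C1qb, a complement subunit, shifted by -1.66 ± 0.39, from 1.02 on day 1, which passed, to -0.64 on day 14, which did not. It missed in 10. Csf1r, the macrophage growth factor receptor, and Adgre1, the F4/80 antigen, shifted by -1.50 and -1.13 and missed in 7 and 13. The list's count was 10 without control day 1 replicate 2, 6 without rotenone day 1 replicate 4, 3 without control day 14 replicate 1 or rotenone day 1 replicate 3, and 2 without control day 1 replicate 3 or 4. It was 1 without control day 1 replicate 1, control day 14 replicate 3, rotenone day 1 replicate 1 or 2, or rotenone day 14 replicate 4. The log2 of the summed intensity ranged from 14.24 to 15.18 and 14.65 to 15.16 in controls of the 2 days and from 14.97 to 15.50 and 13.87 to 14.47 in rotenone livers.

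Of 18 stellate cell and fibroblast markers, 3 shifted, all downward, beside 0.928% of all genes, with a median of -0.70. Sparc, a matrix glycoprotein, was at 14.95, 14.81, 14.73 and 14.35 in rotenone livers of day 1, above all controls of that day (13.72, 14.15, 13.79 and 14.14). On day 14 it was at 13.58, 13.00, 12.90 and 12.80, below all controls (13.95, 13.75, 13.93 and 13.97). The effect turned from 0.76 to -0.83, both passing, and the shift was -1.60 ± 0.23 (adjusted p = 0.00122), with -1.64 in rotenone livers and -0.05 in controls. The collagen genes Col1a2 and Col3a1 shifted by -1.44 ± 0.27 and -1.43 ± 0.26. The count was 5 without rotenone day 14 replicate 1 and between 3 and 4 without any other liver. The log2 of this list's summed intensity ranged from 14.80 to 15.14 and 14.81 to 15.01 in controls and from 14.97 to 15.61 and 13.73 to 14.46 in rotenone livers. Eng, an endothelial receptor, shifted by -1.13 ± 0.19 as the single one of 11 endothelial markers. Its control part of 0.42 and rotenone part of -0.72 were not told apart. Its effect was 0.79 on day 1, which passed, and -0.34 on day 14, which did not. Cd4, which rat macrophages carry as well as T cells, shifted by -1.57 ± 0.30. It moved from 0.93 on day 1, which passed, to -0.64 on day 14, which did not. B2m, a subunit of MHC class I, shifted by -0.49 ± 0.12 and missed in 15 refits. It was the single one of 26 interferon and antigen genes to pass, beside 0.928% of all genes with a negative shift. That list gave 3 without control day 1 replicate 2 and 0 or 1 without any other liver. None of the cholangiocyte, neutrophil, B cell, pancreas or adipocyte markers passed.

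Stress, amino acid and protein synthesis genes gave single members. Atf5, a transcription factor of the integrated stress response, was at 11.00, 10.95, 11.03 and 11.13 in rotenone livers of day 1, above all controls (9.80, 9.92, 10.03 and 9.75), and at 9.60, 9.40, 9.57 and 8.68 on day 14, below all controls (9.69, 10.14, 9.83 and 9.77). It shifted by -1.70 ± 0.21 (adjusted p = 0.000344), almost all of it in rotenone livers (-1.72 against -0.02). Psat1, of serine synthesis and a known target of the same response, shifted the other way by 2.17 ± 0.31, from -0.40 to 1.77. These were 2 of the 19 genes of that list. Cth, which makes cysteine, rose back from -1.14 to 0.17, a shift of 1.32 ± 0.22. It was the single one of 31 urea cycle and amino acid genes to pass, beside 1.24% of all genes with a positive shift. Within rotenone livers 13 of the 31 rose and 1 fell, beside 3.8% and 3.58% of all genes. Nop2 and Nolc1, nucleolar proteins of ribosome assembly, lost an early rise, with shifts of -0.80 ± 0.16 and -0.71 ± 0.16, the latter missing in 10 refits. Orm1, an acute phase protein, shifted by 1.29 ± 0.27 and missed in 2. With array-median centring it missed the threshold (adjusted p by limma 0.0535). Sesn1, a stress-induced inhibitor of mTOR signalling, shifted by 1.04 ± 0.21 and missed in 1. Orm1 and Sesn1 were lower with rotenone on day 1 (-1.14 and -0.85, both passing). Their effects on day 14 (0.16 and 0.19) did not pass. Ldha, lactate dehydrogenase, shifted by -1.19 ± 0.24, from 0.23 to -0.96, with an adjusted p by limma of 0.058 with the 16 arrays alone, and Pgam1, of glycolysis, by 0.65 ± 0.15, missing in 11.

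Genes for complex I, which rotenone inhibits, shifted upward by small amounts. Of 34 found, 3 passed, all upward, beside 1.24% of all genes. Of the estimates 31 were above 0, and the median was 0.43, beside 0.04 over all genes. Within rotenone livers 14 rose and 0 fell between the days, beside 3.8% and 3.58% of all genes, and in controls 0 passed. By day, 3 were higher and 5 lower with rotenone on day 1, and 7 were higher and 0 lower on day 14. Ndufa1 was at 10.45, 10.15, 10.36 and 10.13 and then 9.93, 10.06, 9.62 and 9.90 in controls, and at 9.61, 9.52, 9.45 and 9.54 and then 10.15, 10.38, 9.84 and 9.96 in rotenone livers. Its rotenone livers began below all controls and ended overlapping them. The shift of 0.95 ± 0.20 came from 0.55 in rotenone livers and -0.40 in controls, which were not told apart (adjusted p = 0.877), and missed in 2 refits. Ndufc2 and Ndufs6 shifted by 0.71 ± 0.15 and 0.59 ± 0.14 and missed in 6 and 12. With array-median centring both missed the threshold (adjusted p by limma 0.079 and 0.191). The count was 7 without rotenone day 14 replicate 1 and 4 without rotenone day 1 replicate 4. It was 2 without control day 1 replicate 2 or 4, control day 14 replicate 4 or rotenone day 1 replicate 3, and 1 without control day 1 replicate 3, control day 14 replicate 2 or 3, rotenone day 1 replicate 1 or 2, or rotenone day 14 replicate 4. It was 0 without rotenone day 14 replicate 2.

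**Figure D4:**
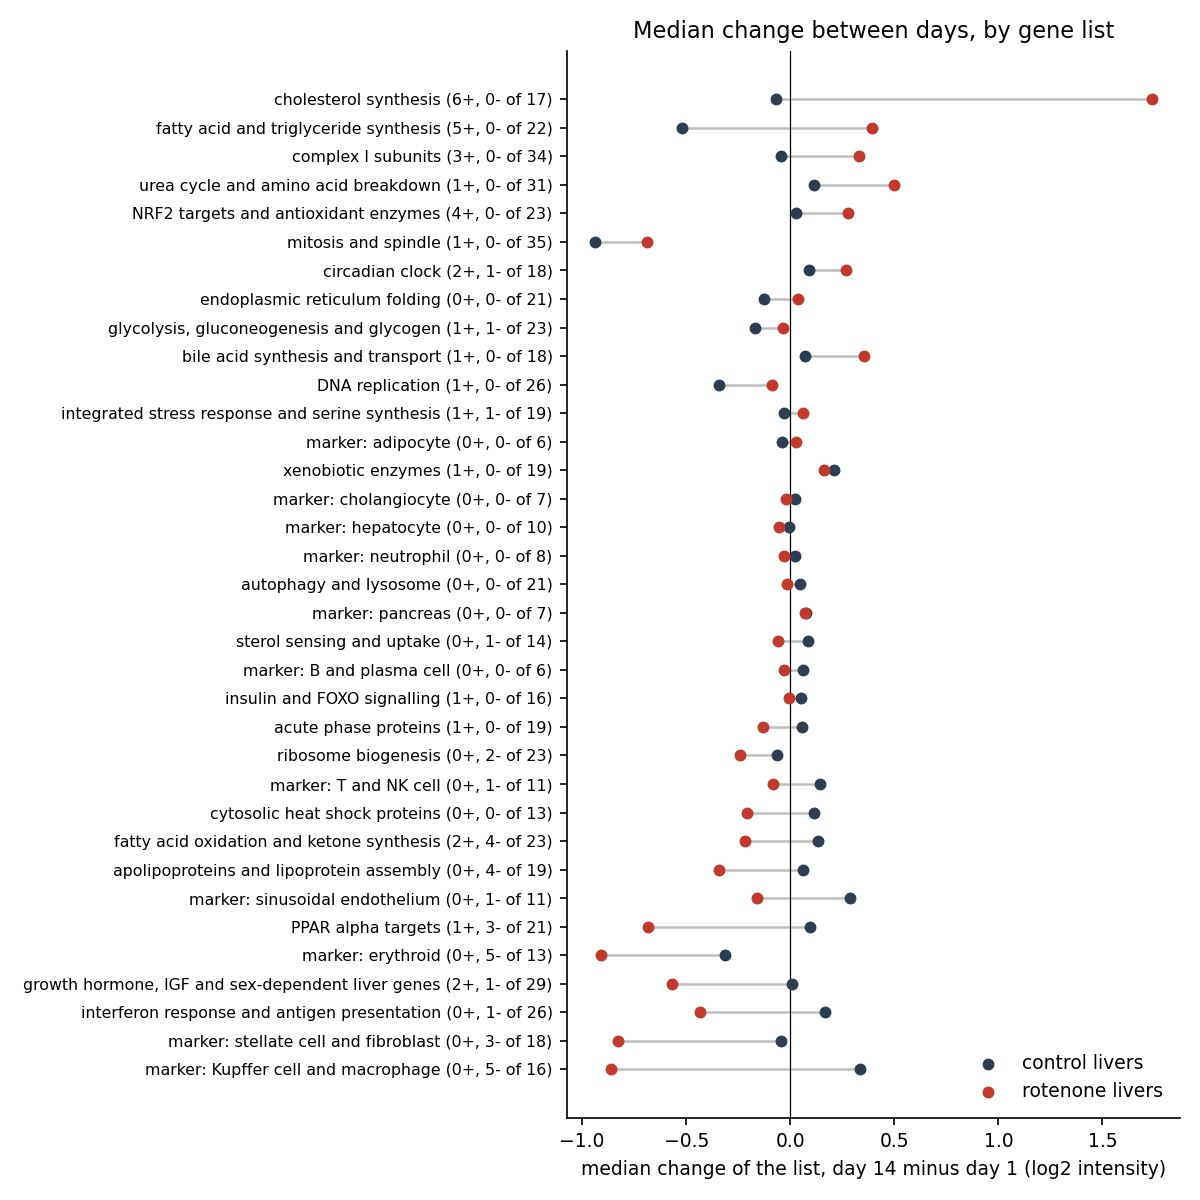
Median change from day 1 to day 14 (log2 intensity) of each gene list in control livers (dark) and rotenone livers (red), ordered by median shift. Labels give how many members had a positive or a negative shift that passed, of those found. Cholesterol synthesis stands furthest to the right in rotenone livers (1.74), the erythroid (-0.91) and macrophage (-0.86) lists furthest to the left, and mitosis is low in both diets.

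Cell division genes fell in both diets. Between the days 21 of 35 mitosis genes fell in controls, beside 0.177% of all genes, with a median of -0.94. In rotenone livers 22 fell and 1 rose, beside 3.58% and 3.8% of all genes, with a median of -0.69. A single shift passed, that of Cenpm, a centromere protein, at 1.05 ± 0.23 (it missed in 7 refits). With rotenone, 26 of the 35 were lower on day 1 and 5 lower and 1 higher on day 14. The mean log2 intensity of the list in rotenone livers of day 14 was 5.07 to 5.18, at the median of the negative control probe sets (5.05 in that group), against 5.19 to 5.85 in controls of that day. The rotenone fall and the shift of this list are limited by that floor. Mki67, the Ki-67 antigen of dividing cells, was at 8.69, 9.02, 10.05 and 10.37 in controls of day 1 and 7.35, 6.07, 8.00 and 7.50 on day 14. Rotenone livers were at 7.89, 8.38, 8.13 and 7.71 and then 5.33, 5.12, 5.34 and 5.31, the last close to the negative control probe sets. Both diets fell, by 2.75 with rotenone, a size limited by the floor, and by 2.31 without, so that the shift of -0.45 ± 0.47 does not measure how far the effect changed. Of the 39 genes that fell in controls, 32 also fell in rotenone livers, and a shift passed in 1 of them.

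That gene was Rrm1, the large subunit of ribonucleotide reductase, and it was the single shift carried by control livers. Controls were at 9.76, 9.90, 10.12 and 10.47 on day 1 and 9.23, 9.02, 9.40 and 9.46 on day 14, with no overlap. Rotenone livers were at 9.51, 9.25, 9.42 and 9.66 and then 9.47, 9.77, 9.61 and 9.50, which overlapped. The shift of 0.91 ± 0.21 (adjusted p = 0.0325) was made of -0.78 in controls and 0.13 in rotenone livers. The sizes were not told apart (adjusted p = 0.155), and the shift missed in 11 refits. It also missed with array-median centring and with the 16 arrays alone (adjusted p by limma 0.0769 and 0.0821). In the fit of 16 arrays no change of controls between the days passed. The 16 genes carried by neither diet alone included Ly6c, with 1.12 in controls and -0.40 in rotenone livers, and Oit3, with 0.79 and -0.64, which missed in 10 and 5 refits. These 2 were named after their values were seen. Among the reference genes, Gapdh had a shift of 0.17 ± 0.15, which did not pass. Albumin, at the top of the scale in every liver, could not show one. Srebf2, the sterol-sensing factor, had a shift of 1.19 ± 0.34 with an adjusted p of 0.104.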

How the data were processed

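Liver RNA of 24 rats was hybridised to the Affymetrix Rat Transcriptome Array 1.0. By their methods, the authors corrected probe signals for base content (GCCN), then ran Signal Space Transformation (SST) and RMA summarisation. The deposited intensity values are linear, and log2(intensity + 1) was analysed. Of 70580 features, 1738 control probe sets were set aside, leaving 68842 transcript clusters; 23446 carried 1 symbol, giving 22093 genes by their brightest cluster. Of the genes, 32.7% lay below the median negative control probe set. A model with 6 group means was fitted to all 24 arrays with limma 3.58.1 in R 4.3.3, with two-sided p adjusted by Benjamini-Hochberg over all clusters and a threshold of 0.05. On simulated data, shifts were planted in 200 clusters at or above the median mean. Of these, 5% passed at 1.5-fold, 50% at 2-fold and 95% at 4-fold, so small shifts are often missed.

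Genes were named as the 10 largest shifts each way whose rotenone livers, relative to the same-day control mean, did not overlap between days, all control-carried shifts up to 6, up to 3 each way per list, and reference genes. The members, the 35 lists (640 of 687 genes found) and the rule were chosen with earlier results of these data known. Lists are described by counts and medians and were not tested. Alternatives covered filters, 16 arrays alone, variance priors, weights, normalization, pseudocount 16, the replicate number and each liver left out. Promoter sequences are RefSeq's, build GRCr8. Replicates are separate animals.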

Additional observations from a re-analysis of the deposited data

Results flagged for a closer look

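In 67 named genes the rotenone effect differed between day 1 and day 14 by the limma test of the difference itself, with the log2 shift in brackets. It was positive in Cyp7a1 (7.69), Cyp2c24 (5.18), Hsd17b2 (4.74), Cyp2c80 (4.40), Elovl6 (4.38), Nr1d1 (4.03), Abcc3 (3.79), Acsm2 (3.74), Serpina7 (3.44), Sntb1 (3.35), Acat2 (3.33), Hsd17b7 (3.07), Tm7sf2 (2.92), Acacb (2.77), Acss2 (2.48), Ces2c (2.47), Gsta3 (2.20), Psat1 (2.17), Cd36 (1.8), Gsta2 (1.71), Cth (1.32), Orm1 (1.29), Cry2 (1.26), Cux2 (1.19), Cenpm (1.05), Sesn1 (1.04), Ndufa1 (0.95), Rrm1 (0.91), Etfb (0.81), Ndufc2 (0.71), Pgam1 (0.65), Etfa (0.63) and Ndufs6 (0.59). It was negative in Hbbl1 (-5.14), Slc22a8 (-4.84), Hba-a3 (-4.79), Hbb-b1 (-4.73), Hba-a1 (-4.71), Hbb-bs (-4.61), Apoa4 (-4.41), Cyp17a1 (-4.15), Abhd2 (-3.69), Paqr9 (-2.99), Apoa1 (-2.54), Cyp2c7 (-2.53), Cry1 (-1.95), Atf5 (-1.70), Plin2 (-1.66), C1qb (-1.66), Eci1 (-1.61), Sparc (-1.60), Clec4f (-1.59), Cd4 (-1.57), Acot3 (-1.55), Cd163 (-1.51), Col1a2 (-1.44), Col3a1 (-1.43), Ldha (-1.19), Eng (-1.13), Bdh1 (-1.03), Creb3l3 (-1.01), Lcat (-0.88), Nop2 (-0.80), Nolc1 (-0.71), Hadha (-0.66), Mbtps2 (-0.62) and B2m (-0.49).

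One liver stood far from the other 3 of its group, by Dixon's test at the 95% level, in 17 of the 308 sets of 4 examined (77 named genes in 4 groups). Chance alone marks about 1 in 20 such sets. In rotenone livers of day 1 the stray values belonged to Hsd17b2 (9.45), Cd36 (9.82), Abcc3 (7.32), Gsta2 (14.51) and Sesn1 (7.64). In rotenone livers of day 14 the stray values belonged to Hsd17b2 (12.25), Cyp17a1 (9.82), Paqr9 (10.84), Acot3 (10.86), Psat1 (8.65) and Mki67 (5.12). In controls of day 14 the stray values belonged to Cyp2c80 (6.78), Srebf2 (9.48) and Cpt1a (13.58). In controls of day 1 the stray values belonged to Cyp17a1 (10.33), Nop2 (9.15) and Col1a2 (8.15). Of the 6 such values in rotenone livers of day 14, those of Hsd17b2 and Paqr9 belonged to replicate 1.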

How the results depend on the processing

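The shift was called in 640 clusters. It was called in 1240 among clusters at or above the median mean, 1244 among clusters with 1 symbol, 970 with a pseudocount of 16, 405 with array-median centring (196 positive, 209 negative), 265 with the 16 arrays alone and 236 by the ordinary analysis of variance at an interaction p below 1e-04. The counts with quantile normalization, trended and robust priors, array weights and the fold threshold stayed within 1.5 times. Leaving out 1 liver gave 333 to 1012. Shifts carried by rotenone livers numbered 588, and 1111, 1112, 375 and 256 for clusters above the median, 1 symbol, centring and 16 arrays, or 311 to 930 without 1 liver. Shifts carried by controls numbered 4, and 1 with centring, 0 with 16 arrays, and 0 to 6 without 1 liver. The larger part was tested in 105 clusters of opposite sign, and in 182, 185, 64 and 60 under the same 4 settings, or 52 to 202 without 1 liver. Changes of controls between days passed in 50 clusters, 84 with 1 symbol, 21 with centring, 0 with 16 arrays, and 2 to 83 without 1 liver; those of rotenone livers in 2339, or 1436 to 2626 without 1. The effect of day 14 passed in 3110, in 4878 above the median, and in 1802 to 4029 without 1 liver. Fewer clusters or samples enter the filters and the 16-array fit; the cause of the other differences was not tested. Of 67 named genes, 32 passed under every alternative, 35 missed at least 1 and 0 reversed. Replicate numbers did not pair the livers (same-numbered deviations correlated at a median of -0.002, from -0.19 to 0.27), and with the replicate block 553 shifts passed, 507 carried by rotenone livers, and 7 of the 67 genes missed. With the 16 arrays alone 27 missed. Values near the negative controls may be compressed.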
